A study of Homo sapiens with 12 samples.

Results

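The transcripts of YAP1, WWTR1, TEAD1, TEAD3, TEAD4, CTGF, CYR61, ANKRD1, AMOTL2 and AJUBA were followed through 12 RNA-seq libraries from KYSE510 and TE7, a pair of established human cell lines from esophageal squamous cell carcinoma. These 10 genes were taken by symbol out of the 57755 gene identifiers in each deposited table, and each symbol matched 1 identifier at 1 locus. Each line gave 1 library per condition. The conditions were the vehicle DMSO, the covalent CDK7 inhibitor THZ1 at 50 nM for 2, 4, 6 or 12 h, and THZ1 at 200 nM for 6 h. At higher doses THZ1 also binds CDK12 and CDK13. KYSE510 was kept in RPMI-1640 and TE7 in DMEM, so line and medium cannot be told apart. The labels put each DMSO library at 12 h while its title says 0 h, and no DMSO library carries the label of 2, 4 or 6 h. Time in culture therefore cannot be told apart from time in the drug at those hours.

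YAP, encoded by YAP1, and TAZ, encoded by WWTR1, are the transcriptional coactivators at the end of the Hippo pathway. They do not bind DNA themselves and reach their genes mainly through the TEAD transcription factors. When the kinases LATS1 and LATS2 phosphorylate them they are held in the cytoplasm, and when they are not phosphorylated they enter the nucleus and bind TEAD proteins. YAP is active in the basal layer of squamous epithelium, and its gene is amplified in a share of squamous carcinomas. CTGF and CYR61, which encode secreted matrix-associated signalling proteins, and ANKRD1, which encodes an ankyrin repeat protein, are the usual readout genes of YAP and TEAD activity. AMOTL2 is a target whose protein, a scaffold of the angiomotin family, binds YAP and holds it out of the nucleus. AJUBA encodes a LIM-domain scaffold that restrains LATS kinases. These data are levels of polyadenylated RNA and hold nothing on the phosphorylation or location of the proteins.

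TEAD proteins bind the motif GGAATG, read on the other strand as CATTCC, and 3 promoters of target genes are shown because they hold that motif. Each runs 5′ to 3′ on the strand of the gene over the 250 bases before a start in the RefSeq annotation of GRCh38.p14, with matches in capitals. CTGF, listed by RefSeq as CCN2, has 3 matches at chr6:131951373-131951622 on the minus strand. ANKRD1 has 2 at chr10:90921088-90921337 on the minus strand, and the second listed start of AMOTL2 has 1, in the CATTCC reading, at chr3:134374448-134374697 on the minus strand.
CTGF: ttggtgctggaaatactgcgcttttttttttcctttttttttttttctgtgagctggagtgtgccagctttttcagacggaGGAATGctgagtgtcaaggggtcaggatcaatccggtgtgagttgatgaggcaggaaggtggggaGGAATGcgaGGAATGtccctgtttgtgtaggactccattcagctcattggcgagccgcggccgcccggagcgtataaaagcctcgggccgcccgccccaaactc
ANKRD1: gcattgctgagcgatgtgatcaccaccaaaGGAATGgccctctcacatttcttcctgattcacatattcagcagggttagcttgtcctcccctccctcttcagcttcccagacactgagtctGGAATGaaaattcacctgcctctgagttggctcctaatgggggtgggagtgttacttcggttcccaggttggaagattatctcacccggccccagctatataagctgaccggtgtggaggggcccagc
AMOTL2: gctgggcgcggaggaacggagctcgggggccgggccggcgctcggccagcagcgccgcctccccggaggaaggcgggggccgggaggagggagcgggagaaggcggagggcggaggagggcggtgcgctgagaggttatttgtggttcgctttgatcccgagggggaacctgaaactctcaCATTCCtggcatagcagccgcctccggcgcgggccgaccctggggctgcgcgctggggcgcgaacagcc
The matches start 169, 104 and 95 bases before the start of CTGF, 220 and 128 bases before that of ANKRD1, and 69 bases before that of AMOTL2. Of the 10 genes, 7 had a promoter in the RefSeq table, with 10 starts between them, and 5 of those 10 promoters held the motif. YAP1 and the second start of AJUBA each had 1 match. The promoter of TEAD3, both of WWTR1 and the first starts of AMOTL2 and AJUBA had none. Among 35116 promoters of the same length, 11.9% held at least 1 match on either strand, 0.94% at least 2 and 0.0826% at least 3. A match of 6 letters describes the sequence and is not evidence of binding. CYR61, TEAD1 and TEAD4 are named only.

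Levels are FPKM, fragments scaled for transcript length and for library size, as the authors deposited them. Over all genes a KYSE510 library held 383975 to 535976 FPKM and a TE7 library 459201 to 729515 FPKM, and 11685 to 13982 genes reached 1 FPKM. The library labelled KYSE510 DMSO stood apart from the THZ1 libraries of its line. In it 50 genes were at 8 FPKM or more that were under 0.3 FPKM in all 4 KYSE510 libraries at 50 nM, and 61 genes showed the opposite, against 4 and 1 in TE7. Of the 8 squamous markers, the library labelled KYSE510 DMSO lay below all 5 THZ1 libraries of the line for 2 (KRT6A, 930.0 to 1809 FPKM with THZ1 and 14.5 FPKM in DMSO, and SOX2, 15.3 to 102 FPKM with THZ1 and 8.37 FPKM in DMSO). It lay above them for 1 (KRT17, 47.7 to 554 FPKM with THZ1 and 719 FPKM in DMSO) and within their range for 5, TP63 and KRT5 among them. In TE7 the DMSO library lay below the THZ1 libraries for 2 of the 8, above them for 5 and within their range for 1. Both libraries at 200 nM stood apart by the same measure, with 35 and 54 such genes in KYSE510 and 27 and 82 in TE7. All 8 squamous markers and all 4 simple epithelial markers reached 1 FPKM in both lines. Of 6 fibroblast markers, 1 did in KYSE510 (summed list 7.29 to 8.94 FPKM) and 2 in TE7 (3.40 to 5.96 FPKM), and the mesenchymal gene VIM stayed at or under 0.687 FPKM. The leukocyte gene PTPRC stayed at or under 0.117 FPKM, while CD68 reached 12.7 FPKM in KYSE510 and 14.6 FPKM in TE7.

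Differences were tested with limma on log2(FPKM + 1), with the cell line as a block, over the 15610 genes that reached 1 FPKM in 2 or more libraries. All 10 genes entered, CTGF and ANKRD1 through KYSE510 alone, since CTGF stayed under 1 FPKM in every TE7 library and ANKRD1 in all but 1. A change is given as the mean of both lines ± SE (n = 2 libraries a condition), and "adjusted p" is limma's value after Benjamini-Hochberg adjustment over all tested genes, with a threshold of 0.05. The lines served as replicates, so a p-value here reflects how far these libraries and both lines scatter, and nothing says that they came from repeat cultures. The scale understates changes of genes with low FPKM. FPKM is relative to each library, so a change of total RNA per cell was not measured, and in bulk RNA fewer expressing cells and less RNA per cell cannot be told apart. The 5 comparisons with DMSO share both DMSO libraries.

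YAP1 (ENSG00000137693, chr11:101981192-102104154 on hg19) was the more abundant coactivator gene in DMSO. In KYSE510 it was at 112 FPKM in DMSO, at 46.6, 42.3, 39.5 and 32.2 FPKM after 2, 4, 6 and 12 h at 50 nM, and at 21.0 FPKM at 200 nM. In TE7 it was at 59.2 FPKM in DMSO, at 60.8, 55.2, 46.6 and 32.9 FPKM over the same hours, and at 36.3 FPKM at 200 nM. The lines met at 12 h, and the 2 h library of KYSE510 was already well under its DMSO library while that of TE7 was not. The fall of YAP1 passed at 12 h (-1.30 ± 0.36, adjusted p = 0.0295) and at 200 nM (-1.53 ± 0.36, adjusted p = 0.0122). At 2 h (-0.61 ± 0.36, adjusted p = 0.54), 4 h (-0.74 ± 0.36, adjusted p = 0.354) and 6 h (-0.91 ± 0.36, adjusted p = 0.181) it did not pass. Without the library labelled KYSE510 DMSO, YAP1 stood at -0.67 at 12 h (adjusted p = 0.0949) and at 0.03 at 2 h, and without the TE7 DMSO library it passed at all 4 times, with -1.24, -1.38, -1.55 and -1.94. The 12 h call was also lost on leaving out any 1 of the 8 libraries at 50 nM (adjusted p 0.0509 to 0.146), and the 200 nM call on leaving out the KYSE510 library at 200 nM (-1.16, adjusted p = 0.0591). Without the library labelled KYSE510 DMSO the 200 nM change was -0.89 (adjusted p = 0.0329).

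WWTR1 (ENSG00000018408, chr3:149235022-149454501) lay above its DMSO level where YAP1 lay below it in KYSE510 at 50 nM. It was at 13.1 FPKM in DMSO, at 53.2, 48.6, 49.8 and 28.0 FPKM over 2 to 12 h at 50 nM, and at 11.8 FPKM at 200 nM. TE7 had 12.4 FPKM in DMSO, 18.6, 20.5, 19.1 and 8.23 FPKM over those hours, and 12.0 FPKM at 200 nM. All 6 libraries of 2 to 6 h lay above the DMSO libraries, but WWTR1 did not pass at 2 h (1.24 ± 0.44, adjusted p = 0.407) or at 6 h (1.22 ± 0.44, adjusted p = 0.158). WWTR1 per YAP1, in FPKM, was 0.117 in KYSE510 DMSO, 0.868 to 1.26 at 50 nM and 0.561 at 200 nM. In TE7 the same ratio was 0.210 in DMSO, 0.250 to 0.410 at 50 nM and 0.331 at 200 nM. In both lines the ratio was lowest in DMSO, and the KYSE510 ratio rests on the DMSO library that stood apart. Without that library WWTR1 was at 0.72 at 2 h (adjusted p = 0.842) and 0.69 at 6 h (adjusted p = 0.513), and without the TE7 DMSO library at 1.77 (adjusted p = 0.0702) and 1.74 (adjusted p = 0.0602).

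**Figure D1:**
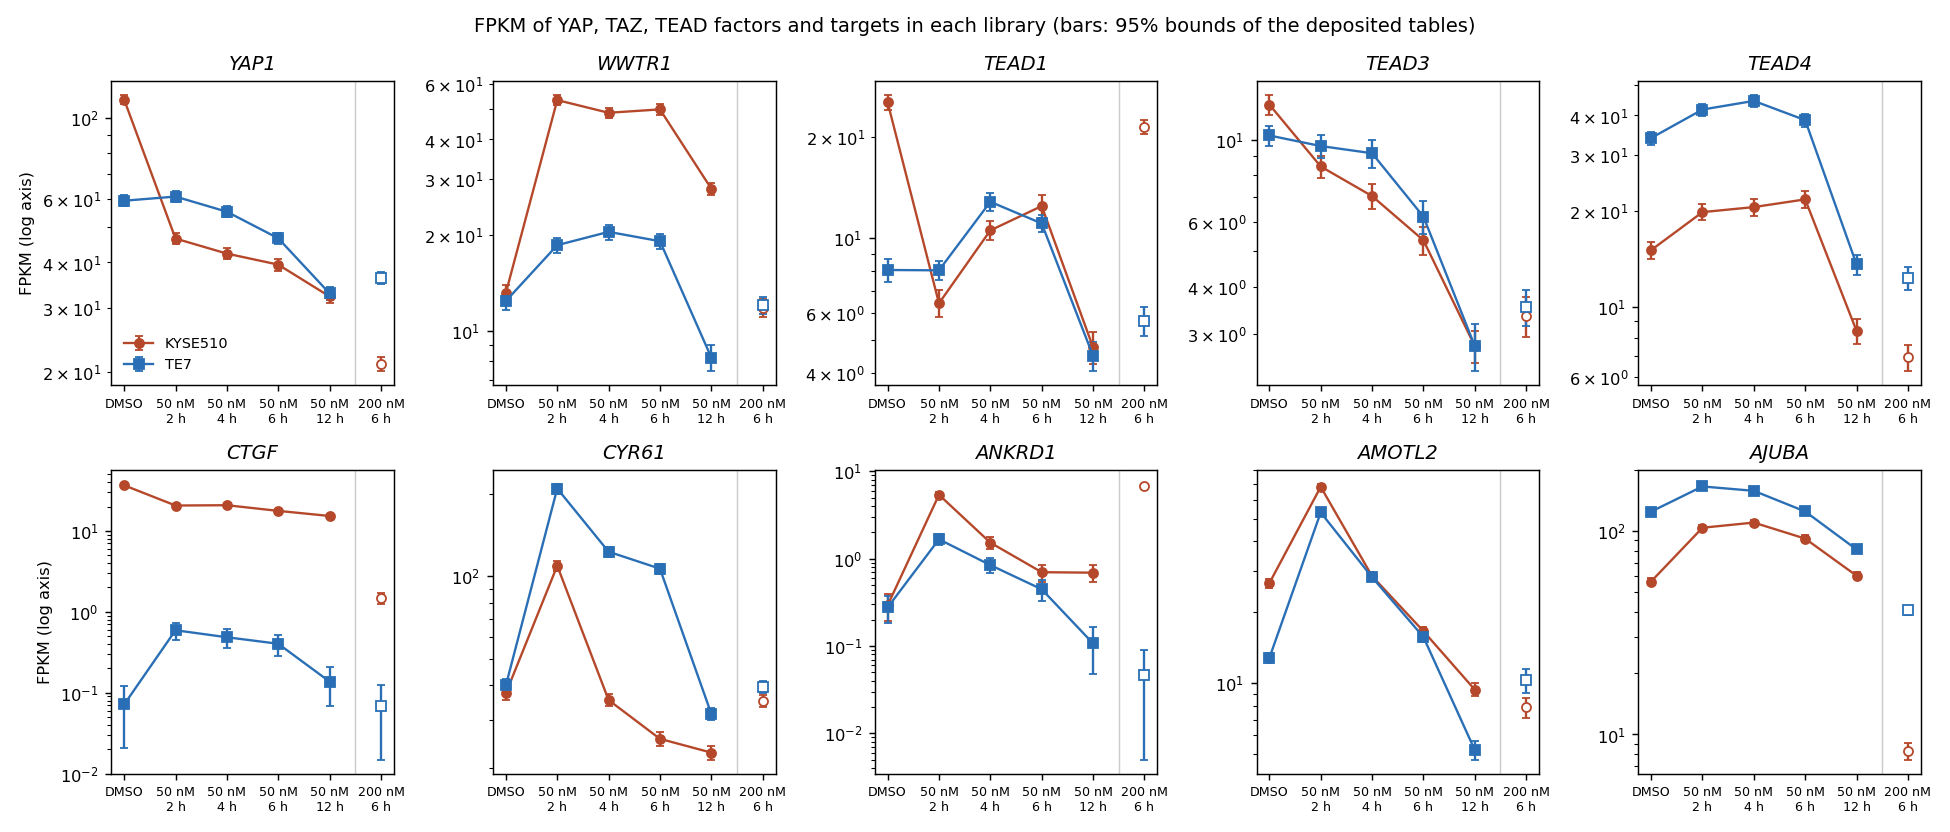
FPKM of each gene on a log axis in DMSO, after 2, 4, 6 and 12 h of THZ1 at 50 nM (joined by lines) and after 6 h at 200 nM (open symbols), for KYSE510 (circles) and TE7 (squares), with 1 library per point and bars for the 95% bounds of the deposited tables. CYR61 and AMOTL2 peak at 2 h in both lines, TEAD3 ends at 2.78 FPKM in both lines at 12 h, and CTGF stays under 1 FPKM in TE7.

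Of the TEAD genes described here, TEAD3 and TEAD4 fell at 12 h and at 200 nM, and TEAD1 did not pass. TEAD3 (ENSG00000007866, chr6:35441374-35464853) was at 12.4 FPKM in KYSE510 DMSO, then at 8.46, 7.04, 5.35 and 2.78 FPKM over 2 to 12 h, and at 3.35 FPKM at 200 nM. In TE7 it was at 10.3 FPKM in DMSO, at 9.60, 9.18, 6.20 and 2.78 FPKM over those hours, and at 3.54 FPKM at 200 nM. Every step of the time course was downward in both lines. TEAD3 did not pass at 6 h (-0.86 ± 0.22, adjusted p = 0.0646). It fell at 12 h (-1.70 ± 0.22, adjusted p = 0.00206) and at 200 nM (-1.47 ± 0.22, adjusted p = 0.00194). At 6 h it passed, with adjusted p = 0.022 to 0.0382, without the TE7 DMSO library or without either library at 200 nM.

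TEAD4 (ENSG00000197905, chr12:3068496-3149839) was the most abundant TEAD gene in TE7. In KYSE510 it was at 15.1 FPKM in DMSO, at 19.9, 20.6, 21.8 and 8.40 FPKM over 2 to 12 h, and at 6.92 FPKM at 200 nM. TE7 had 34.0 FPKM in DMSO, 41.8, 44.5, 38.7 and 13.6 FPKM over those hours, and 12.3 FPKM at 200 nM. Up to 6 h every 50 nM library lay above the DMSO library of its line, and at 12 h and at 200 nM every library lay below it. TEAD4 fell at 12 h (-1.02 ± 0.20, adjusted p = 0.00835; 0.0592 without the TE7 library of 12 h) and at 200 nM (-1.21 ± 0.20, adjusted p = 0.0029).

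TEAD1 (ENSG00000187079, chr11:12695969-12966298) was at 25.3 FPKM in KYSE510 DMSO, at 6.42, 10.5, 12.5 and 4.75 FPKM over 2 to 12 h, and at 21.4 FPKM at 200 nM. In TE7 it was at 8.05 FPKM in DMSO, at 8.04, 12.8, 11.1 and 4.48 FPKM over those hours, and at 5.70 FPKM at 200 nM. In KYSE510 the DMSO and 200 nM libraries, both of which stood apart, were the high ones. TEAD1 at 12 h was -1.46 ± 0.54 (adjusted p = 0.0807). It passed there without the TE7 DMSO library (-2.08, adjusted p = 0.0439) or without either 200 nM library (adjusted p = 0.0385 and 0.0383).

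TEAD2, the remaining family member, was at 12.3 to 17.8 FPKM in KYSE510 and at 0.0671 to 1.13 FPKM in TE7. It entered the filter through KYSE510, so its line difference is given as levels with no test. The FPKM of all 4 TEAD genes summed to 70.5 in KYSE510 DMSO, 50.8, 53.0, 55.0 and 28.3 over 2 to 12 h, and 45.0 at 200 nM. In TE7 the sum was 53.4 in DMSO, 59.8, 66.9, 56.3 and 21.2 over those hours, and 21.6 at 200 nM. TEAD4 made up 15.4% to 39.6% of the sum in KYSE510 and 56.9% to 69.8% in TE7.

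**Figure D2:**
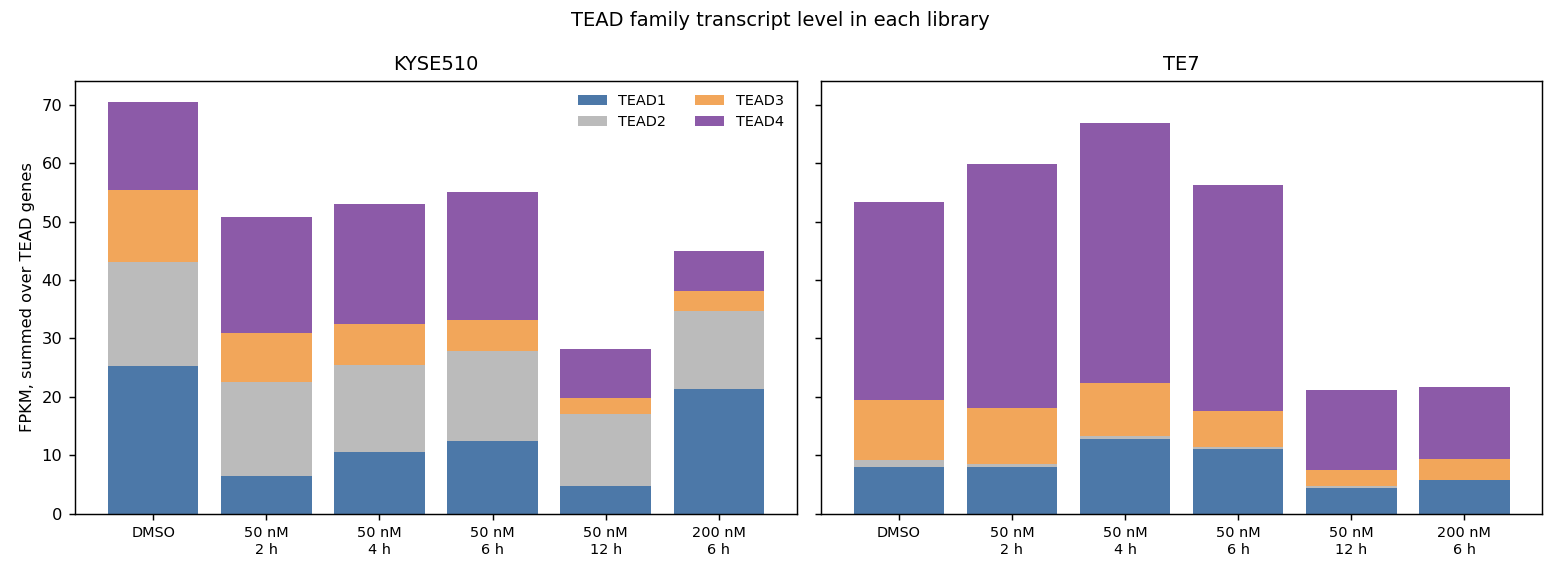
FPKM of TEAD1, TEAD2, TEAD3 and TEAD4 stacked for each library, KYSE510 on the left and TE7 on the right, with 1 library per bar. The stack is lowest at 12 h in KYSE510 (28.3 FPKM) and at 12 h and 200 nM in TE7 (21.2 and 21.6 FPKM), and TEAD2 is nearly absent from TE7.

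The target genes CYR61, AMOTL2 and ANKRD1 were higher in both lines at 2 h than in DMSO, without passing the test. CYR61 (ENSG00000142871, chr1:86046444-86049645) was at 37.4 FPKM in KYSE510 DMSO, at 109 FPKM at 2 h, at 35.3, 25.5 and 22.7 FPKM at 4, 6 and 12 h, and at 35.0 FPKM at 200 nM. The TE7 levels were 40.0 FPKM in DMSO, 209, 123, 107 and 31.5 FPKM over 2 to 12 h, and 39.4 FPKM at 200 nM. The 2 h library was thus 2.92 times DMSO in KYSE510 and 5.23 times DMSO in TE7, and only TE7 stayed above DMSO at 4 and 6 h. At 2 h the mean change of CYR61 was 1.94 ± 0.49 (adjusted p = 0.297).

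AMOTL2 (ENSG00000114019, chr3:134074716-134094321) was at 26.6 FPKM in KYSE510 DMSO, at 68.2, 28.5, 16.6 and 9.38 FPKM over 2 to 12 h, and at 7.90 FPKM at 200 nM. In TE7 it was at 12.8 FPKM in DMSO, at 53.1, 28.2, 15.7 and 5.20 FPKM over those hours, and at 10.3 FPKM at 200 nM. From 2 h on the lines ran close together and both ended under DMSO. AMOTL2 was at 1.65 ± 0.32 at 2 h (adjusted p = 0.254) and 0.59 ± 0.32 at 4 h (adjusted p = 0.408). At 2 h it passed without the 3 libraries that stood apart (2.00 ± 0.24, adjusted p = 0.0372), where TE7 alone supplies DMSO. It fell at 12 h (-1.28 ± 0.32, adjusted p = 0.0221), a call lost without the library labelled KYSE510 DMSO (-0.87, adjusted p = 0.104) or without the TE7 library of 12 h (-1.02, adjusted p = 0.15). At 200 nM AMOTL2 was only just past the threshold (-0.96 ± 0.32, adjusted p = 0.0485). That call was lost on leaving out the library labelled KYSE510 DMSO (-0.55), the KYSE510 library at 200 nM (-0.57) or any 1 of the 8 libraries at 50 nM (adjusted p 0.0566 to 0.0801).

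ANKRD1 (ENSG00000148677, chr10:92671853-92681033) was low throughout. It was at 0.292 FPKM in KYSE510 DMSO, at 5.39, 1.53, 0.700 and 0.691 FPKM over 2 to 12 h, and at 6.78 FPKM at 200 nM. The TE7 levels were 0.276 FPKM in DMSO, 1.67, 0.845, 0.446 and 0.107 FPKM over those hours, and 0.0469 FPKM at 200 nM. The 2 h library was the highest 50 nM library in each line, while at 200 nM the lines lay at opposite ends. ANKRD1 was at 1.68 ± 0.63 at 2 h (adjusted p = 0.424).

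CTGF (ENSG00000118523, chr6:132269316-132272513) was a KYSE510 gene in these libraries. It was at 36.6 FPKM in KYSE510 DMSO, at 20.6, 20.8, 17.7 and 15.3 FPKM over 2 to 12 h, and at 1.48 FPKM at 200 nM. In TE7 it was at 0.0715 FPKM in DMSO, at 0.591, 0.485, 0.403 and 0.137 FPKM over those hours, and at 0.0691 FPKM at 200 nM. CTGF did not share the 2 h peak in KYSE510, where its 2 h library was 0.563 times DMSO. At 200 nM it was at -3.92 in KYSE510 and -0.0032 in TE7 on the log2(FPKM + 1) scale, and the mean of -1.96 ± 0.75 did not pass (adjusted p = 0.0715). It passed without the TE7 DMSO library (-2.89, adjusted p = 0.0362) or the TE7 library at 200 nM (-3.39, adjusted p = 0.00229), which leave KYSE510 more weight. CYR61 per CTGF, in FPKM, was 1.02 to 23.7 in KYSE510 and 229 to 570.0 in TE7. The TE7 ratios are imprecise, since they divide by a very low CTGF level. At 200 nM its 95% bounds in TE7 were 0.0148 and 0.123 FPKM.

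AJUBA (ENSG00000129474, chr14:23440383-23451851) was high in both lines. It was at 56.5 FPKM in KYSE510 DMSO, at 104, 110.3, 91.9 and 60.4 FPKM over 2 to 12 h, and at 8.31 FPKM at 200 nM. TE7 had 125 FPKM in DMSO, 166, 158, 125 and 81.3 FPKM over those hours, and 40.9 FPKM at 200 nM. The 200 nM library was the lowest of its line in both cases. AJUBA fell at 200 nM against DMSO (-2.11 ± 0.41, adjusted p = 0.00582). Without the KYSE510 library at 200 nM the fall was -1.34 (adjusted p = 0.00652).

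**Figure D3:**
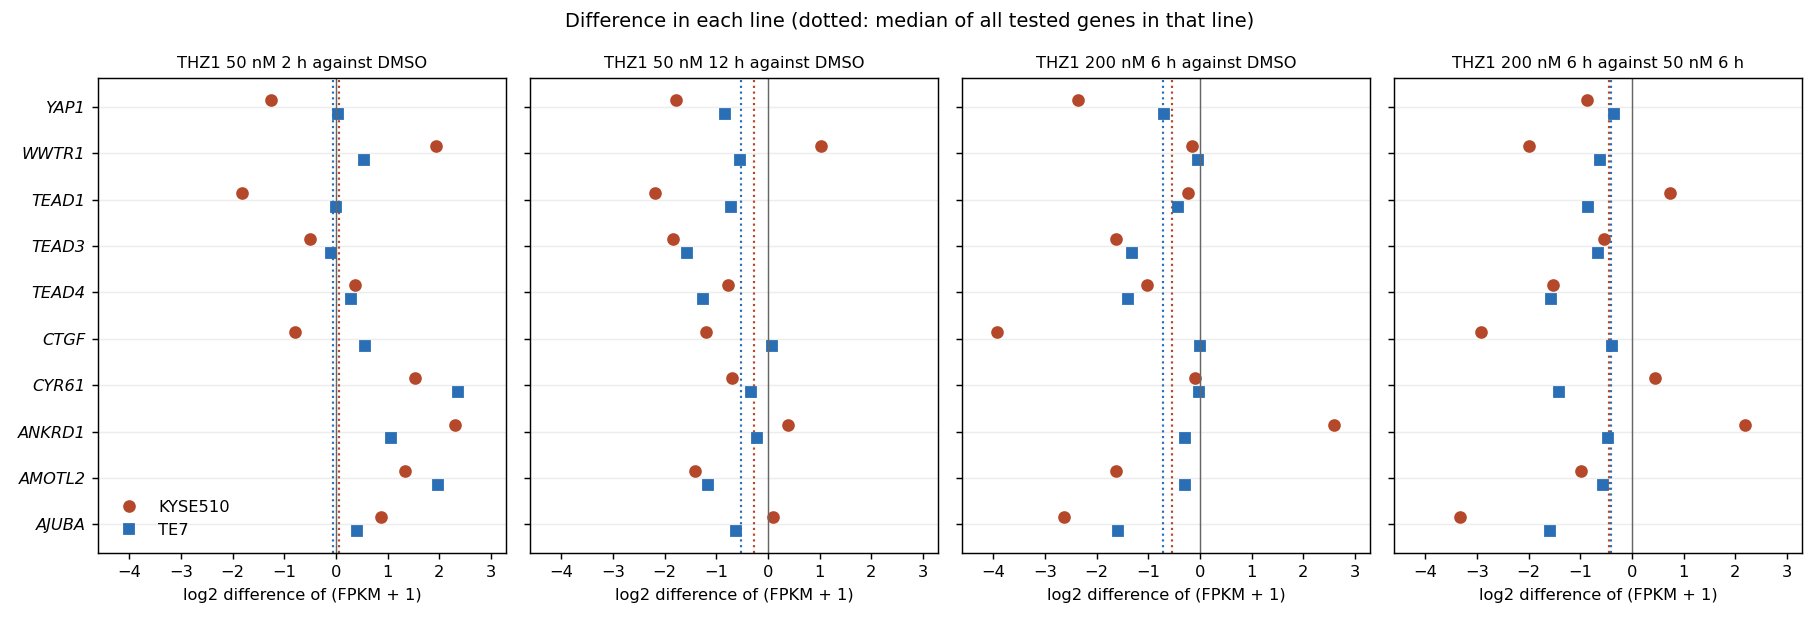
Difference of log2(FPKM + 1) for each gene in KYSE510 (circles) and TE7 (squares) in 4 comparisons, 1 difference per line, with dotted lines at the median of all tested genes in that line. At 2 h CYR61, ANKRD1, AMOTL2, WWTR1, AJUBA and TEAD4 lie above 0 in both lines. Against DMSO at 12 h and at 200 nM the TEAD1, TEAD3, TEAD4, YAP1, AMOTL2 and CYR61 points lie below 0. Those of CYR61 at 200 nM are close to it (-0.09 in KYSE510 and -0.02 in TE7).

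Counted together, 0 of the 10 genes passed at 2 h, where limma called 0.0128% of all tested genes, and 4 of the 10 had an unadjusted p under 0.05, against 1683 of all genes. At 4 h 0 of 10 passed, against 0.0769% of all genes, and 1 of the 10 and 2466 of all genes had such an unadjusted p. At 6 h it was 0 of 10, against 4.71% of all genes, with 3 of the 10 and 3541 of all genes at an unadjusted p under 0.05. The median of the 10 genes was 0.49 at 2 h, beside 0.00 over all tested genes, 0.50 beside -0.06 at 4 h and 0.05 beside -0.15 at 6 h. At 12 h YAP1, TEAD3, TEAD4 and AMOTL2 fell and none of the 10 rose, so 4 of 10 passed where limma called 28.4% of all genes (25.2% lower). The median was -0.79 for the 10 genes and -0.42 for all genes. Fewer of the 10 passed at 12 h without the library labelled KYSE510 DMSO or without the TE7 library of 12 h. The share of all genes called in those fits is not given.

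At 200 nM, 6 h, against DMSO, 5 of 10 passed, all lower, where limma called 38.5% of all genes (35.3% lower). The 5 were YAP1, TEAD3, TEAD4, AMOTL2 and AJUBA. The median was -1.08 for the 10 genes and -0.65 for all genes. Fewer of the 10 passed without the KYSE510 library at 200 nM, and the share of all genes called in that fit is not given. Median-of-ratios scaling, which sets the typical gene to no change, moved the median of all genes to 0.03 at 12 h and -0.01 at 200 nM. Under it TEAD3 alone passed at 12 h (-1.19, adjusted p = 0.0124) and 0 of 10 passed at 200 nM against DMSO, with AJUBA nearest (-1.27, adjusted p = 0.0511).

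The dose comparison at 6 h set 200 nM against 50 nM without any DMSO library. TEAD4 fell by 1.55 ± 0.20 on the log2 scale (adjusted p = 0.00195) and AJUBA fell by 2.45 ± 0.41 (adjusted p = 0.00519). These were 2 of 10, where limma called 24.8% of all genes (21.9% lower). TEAD4 was at 0.318 of its 50 nM level in KYSE510 and at 0.318 in TE7, and AJUBA at 0.0904 in KYSE510 and 0.327 in TE7. Both kept the call after median-of-ratios scaling, AJUBA at -1.84 (adjusted p = 0.0193) and TEAD4 at -0.95 (adjusted p = 0.012). WWTR1 (-1.31 ± 0.44, adjusted p = 0.067), TEAD3 (-0.61 ± 0.22, adjusted p = 0.0787) and CTGF (-1.65 ± 0.75, adjusted p = 0.145) were lower in both lines and did not pass. The same held for AMOTL2 (-0.78 ± 0.32, adjusted p = 0.119) and YAP1 (-0.615 ± 0.36, adjusted p = 0.237). ANKRD1, CYR61 and TEAD1 were higher at 200 nM in KYSE510 (2.19, 0.44 and 0.73) and lower in TE7 (-0.47, -1.41 and -0.85). Without the KYSE510 library at 50 nM, 6 h, TEAD4 alone passed (AJUBA -2.18, adjusted p = 0.0613). On leaving out 1 library at a time the change ran from -1.64 to -1.46 for TEAD4 and from -3.22 to -1.69 for AJUBA. It ran from -1.89 to -0.72 for WWTR1, from -0.66 to -0.55 for TEAD3 and from -3.08 to -0.22 for CTGF. The share of all genes called in those fits is not given.

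The 8 libraries at 50 nM gave a slope over 2 to 12 h that needs no DMSO library, as the mean of both lines per doubling of hours. Of the 10 genes, 9 had a falling slope past the threshold, where limma called 60.0% of all genes (49.1% falling). All 10 slopes lay below the median slope of all genes, -0.16, and the median of the 10 was -0.44. After median-of-ratios scaling all but TEAD1 lay below the median of all genes, which was then 0.0083. The steepest were AMOTL2 (-1.14 ± 0.06, adjusted p = 0.000622), CYR61 (-0.93 ± 0.14, adjusted p = 0.00208), ANKRD1 (-0.62 ± 0.10, adjusted p = 0.00322) and TEAD3 (-0.55 ± 0.09, adjusted p = 0.00256). TEAD4 (-0.50 ± 0.16), WWTR1 (-0.37 ± 0.11), AJUBA (-0.35 ± 0.07), YAP1 (-0.27 ± 0.04) and CTGF (-0.18 ± 0.05) also had falling slopes, with adjusted p from 0.00264 to 0.0292. A falling slope is not a fall at every step. In KYSE510 TEAD4 was at 19.9 FPKM at 2 h, 21.8 FPKM at 6 h and 8.40 FPKM at 12 h. TEAD1 did not pass (-0.20 ± 0.19, adjusted p = 0.395).

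All 10 slopes were negative in each line. Of all tested genes 73.9% had a negative slope as the mean of both lines, and the share within each line is not given. AMOTL2 had a slope of -1.07 in KYSE510 and -1.22 in TE7. CYR61 had -0.85 in KYSE510 and -1.01 in TE7. YAP1 had -0.20 in KYSE510 and -0.34 in TE7, and CTGF had -0.17 in KYSE510 and -0.19 in TE7. The CTGF slopes are not alike in fold. From 2 to 12 h CTGF went from 0.591 to 0.137 FPKM in TE7, where the scale understates changes, and from 20.6 to 15.3 FPKM in KYSE510. The slope in KYSE510 minus that in TE7 passed for 0 of 10 genes in limma, with adjusted p from 0.447 to 0.942, and 0 of the 10 had an unadjusted p under 0.05, against 2456 of all genes. Limma called 0.0384% of all genes for that difference. A p that misses the threshold does not show that the lines are the same. After median-of-ratios scaling AMOTL2 (-0.91), CYR61 (-0.69), ANKRD1 (-0.50) and TEAD3 (-0.35) still passed and the other 6 did not, YAP1 among them (-0.03, adjusted p = 0.466). The same 4 genes and YAP1 were the 5 that passed without the KYSE510 library of 12 h, and likewise without the TE7 library of 12 h. WWTR1 also lost the call without the KYSE510 library of 2 h (adjusted p = 0.0529) or of 4 h (adjusted p = 0.0525), and TEAD4 without that of 4 h (adjusted p = 0.0533). Without the TE7 library of 2 h WWTR1 had a slope of -0.57, and without the KYSE510 library of 2 h ANKRD1 had -0.41, both still past the threshold.

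**Figure D4:**
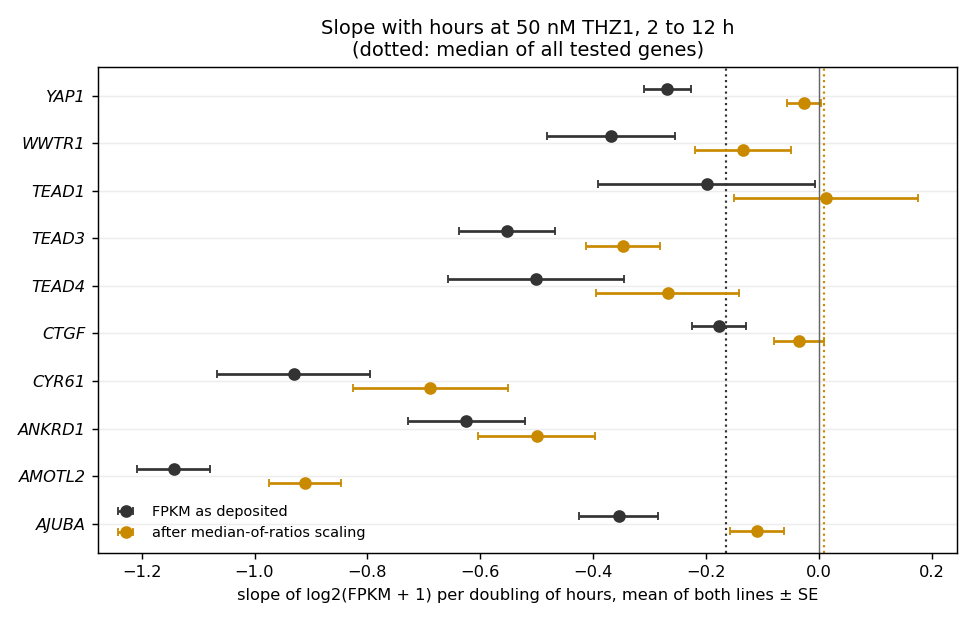
Slope of log2(FPKM + 1) per doubling of hours at 50 nM THZ1 from 2 to 12 h, mean of both lines ± SE from 8 libraries, on FPKM as deposited (dark) and after median-of-ratios scaling (amber), with dotted lines at the median of all tested genes. AMOTL2, CYR61, ANKRD1 and TEAD3 lie to the left of both medians, while YAP1, at -0.27 as deposited, is at -0.03 after scaling.

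The lines were compared with condition held fixed. CTGF and ANKRD1 met the filter through KYSE510 alone and are left out here. Of the other 8 genes, which reached 1 FPKM in 2 or more libraries of each line, 4 differed. Limma called 40.9% of the 12254 genes that did so (15.1% higher in KYSE510 and 25.9% lower). As a mean over the 6 conditions, WWTR1 (0.95 ± 0.26, adjusted p = 0.0182) was higher in KYSE510 than in TE7. That gap lay in the 50 nM libraries. In DMSO WWTR1 was at 13.1 FPKM in KYSE510 and 12.4 FPKM in TE7, and at 200 nM at 11.8 and 12.0 FPKM. TEAD4 (-0.90 ± 0.11, adjusted p = 0.000999), AJUBA (-0.89 ± 0.24, adjusted p = 0.0173) and CYR61 (-0.91 ± 0.28, adjusted p = 0.0316) were lower in KYSE510. CYR61 was close between the lines in DMSO (37.4 FPKM in KYSE510 and 40.0 FPKM in TE7) and at 200 nM (35.0 and 39.4 FPKM). WWTR1 had a median of 38.3 FPKM over the 6 KYSE510 libraries (11.8 to 53.2) and 15.5 FPKM over the 6 TE7 libraries (8.23 to 20.5). AJUBA had a median of 76.2 FPKM in KYSE510 (8.31 to 110.3) and 125 FPKM in TE7 (40.9 to 166). TEAD4 had a median of 17.5 FPKM in KYSE510 (6.92 to 21.8) and 36.3 FPKM in TE7 (12.3 to 44.5). Ranges overlapped for WWTR1, AJUBA, TEAD4 and CYR61. YAP1 was at -0.14 ± 0.21 (adjusted p = 0.591), a mean that takes in 112 FPKM in KYSE510 and 59.2 FPKM in TE7 in DMSO. WWTR1 and CYR61 lost the call on leaving out any 1 of the 8 libraries at 50 nM (adjusted p 0.0554 to 0.0604 for WWTR1 and 0.0509 to 0.0931 for CYR61), which left AJUBA and TEAD4.

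The Hippo kinases, scaffolds and upstream regulators, a list of 21 genes all tested, had 0 genes past the limma threshold at 2, 4 and 6 h. Limma called 0.0128%, 0.0769% and 4.71% of all genes at those times. At an unadjusted p under 0.05 were 1, 1 and 4 of the 21, against 1683, 2466 and 3541 of the 15610 tested genes. Without the TE7 DMSO library the list medians were -0.13, -0.22 and -0.34 at those times. The library labelled KYSE510 DMSO, which stood apart, then alone supplies DMSO. At 12 h 5 of 21 fell and 0 rose, where 25.2% of all genes fell, and the median was -0.33, beside -0.42 over all genes. Among the 5 were TAOK3 (-1.99 ± 0.44, adjusted p = 0.0132), a kinase upstream of the cascade, FRMD6 (-1.38 ± 0.39, adjusted p = 0.0321), a membrane scaffold, and SAV1 (-1.36 ± 0.40, adjusted p = 0.0368), the partner of the kinases STK3 and STK4. Leaving out any 1 library at 50 nM left 0 or 1 that fell. Median-of-ratios scaling left 0 that fell and 1 that rose, and without the library labelled KYSE510 DMSO 1 rose and 1 fell.

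At 200 nM against DMSO 7 of the 21 fell and 0 rose, where 35.3% of all genes fell (median -0.75, beside -0.65). They were led by FRMD6 (-2.39 ± 0.39, adjusted p = 0.00276), TAOK3 (-1.84 ± 0.44, adjusted p = 0.0133) and LATS1 (-1.42 ± 0.29, adjusted p = 0.00709). After scaling 1 fell and 1 rose, and without the TE7 DMSO library the list median was -0.97. FRMD6 was at 4.22 FPKM at 200 nM and 44.8 FPKM in DMSO in KYSE510, and at 9.55 FPKM at 200 nM and 32.0 FPKM in DMSO in TE7. At 200 nM against 50 nM 4 of 21 fell, FRMD6, LATS1, MOB1A and LATS2, where 21.9% of all genes fell. On leaving out 1 of the libraries of 50 nM, 6 h, from either line, 0 passed, on leaving out any other library at 50 nM 2 passed, and 1 passed with no filter on low values. After scaling LATS1 fell and LIMD1 rose.

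In the trend 9 of the 21 fell and 1 rose, where 49.1% of all genes fell (median -0.11, beside -0.16). Without the KYSE510 library of 12 h 3 fell, without the TE7 library of 12 h 5 fell, and after scaling 4 fell and 7 rose. LATS2, which is both a Hippo kinase gene and a YAP target, had the steepest fall of the list (-0.61 ± 0.06, adjusted p = 0.000801). Between the lines 20 of the 21 met the filter in each line, and 1 was higher in KYSE510 and 9 lower, where limma called 15.1% higher and 25.9% lower. The lower count of the list was 5 or 6 on leaving out any 1 library at 50 nM. AMOT, the founding angiomotin, met the filter through KYSE510 alone, at 0.497 to 3.63 FPKM in KYSE510 and 0.00490 to 0.130 FPKM in TE7.

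The other YAP and TAZ target genes, 18 genes all tested, also had 0 past the limma threshold at 2, 4 and 6 h, with medians of -0.02, 0.15 and -0.13. Limma called 0.0128%, 0.0769% and 4.71% of all genes at those times. At an unadjusted p under 0.05 were 6, 4 and 5 of the 18, against 1683, 2466 and 3541 of the 15610 tested genes. Some of the list fell at those times without the TE7 DMSO library. The library labelled KYSE510 DMSO, which stood apart, then alone supplies DMSO, and the share of all genes called is not given. At 12 h 3 of 18 fell and 0 rose, where 25.2% of all genes fell. They were the receptor kinase gene AXL (-2.55 ± 0.81, adjusted p = 0.0492), CCDC80 (-2.03 ± 0.58, adjusted p = 0.0345) and ARHGEF17 (-1.83 ± 0.37, adjusted p = 0.00963). After scaling 1 fell and 3 rose, and the same counts were found without the library labelled KYSE510 DMSO. Fewer of the list fell on leaving out any 1 library at 50 nM, and more on leaving out the TE7 DMSO library. The share of all genes called in those fits is not given. AXL was at 1.14 to 2.07 FPKM at 50 nM and 25.4 FPKM in DMSO in KYSE510, and at 6.12 to 12.3 FPKM at 50 nM and 19.0 FPKM in DMSO in TE7.

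At 200 nM against DMSO 7 of the 18 fell and 2 rose, where limma called 38.5% of all genes and 35.3% fell (median -1.003, beside -0.65), or 3 and 3 after scaling. The transcription factor gene FOXF2 was at 1.80 FPKM at 200 nM and 12.4 FPKM in DMSO in KYSE510, and at 2.92 FPKM at 200 nM and 25.7 FPKM in DMSO in TE7 (-2.51 ± 0.27, adjusted p = 0.00066). It was at 17.7 to 19.8 FPKM at 50 nM in KYSE510 and 18.6 to 20.7 FPKM at 50 nM in TE7, and it fell at 200 nM against 50 nM too (-2.59 ± 0.27, adjusted p = 0.000992). In the trend 8 of the 18 fell and 3 rose, where 49.1% of all genes fell, or 4 and 7 after scaling, with GADD45A falling (-0.48 ± 0.09, adjusted p = 0.00542). Between the lines 17 of the 18 met the filter in each line, and 3 were higher in KYSE510 and 7 lower, where limma called 15.1% higher and 25.9% lower. IGFBP3 was the highest (3.87 ± 0.20, adjusted p = 3.76e-05).

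Of TEAD2 and the TEAD cofactors, 3 of 5 genes were tested and VGLL1 and VGLL2 stayed under the filter. At 200 nM against DMSO TEAD2 (-0.69 ± 0.23, adjusted p = 0.0435) and VGLL4 (-0.67 ± 0.19, adjusted p = 0.0286), whose protein competes with YAP for TEAD, fell, where 35.3% of all genes fell. Neither passed after scaling or on leaving out any 1 library of 2, 4 or 6 h at 50 nM. VGLL3, another cofactor of that family, was at 0.0360 to 1.49 FPKM in KYSE510 and at 3.67 to 9.50 FPKM in TE7, and met the filter through TE7 alone, so no test of its line difference is given.

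Likeness to a gene was measured as the mean absolute difference of log2(FPKM + 1), centred within each line, over the 12 libraries and 8588 protein-coding genes with a mean of at least 5 FPKM. The 5 genes nearest to YAP1 were C2orf15 (0.107), USP40 (0.109), POLR1A (0.109), FCF1 (0.109) and MPZL1 (0.111), where the median over all compared genes was 0.433. USP40 was at 3.80 to 11.7 FPKM in the THZ1 libraries of KYSE510 and at 33.0 FPKM in the one labelled DMSO, so these points share that high library. Among the 10 genes TEAD3 was nearest to YAP1 (0.274). The 5 nearest to CYR61 were PLK3 (0.330), SOWAHC (0.357), EPHA2 (0.362), MAFF (0.364) and GADD45A (0.365), where the median was 0.759. PLK3, which encodes a stress-responsive kinase, was at 13.6 FPKM at 2 h and 1.97 FPKM in DMSO in KYSE510, and at 18.7 FPKM at 2 h and 2.89 FPKM in DMSO in TE7. AMOTL2 was the nearest to CYR61 among the 10 genes (0.393), ahead of TEAD4 (0.535) and ANKRD1 (0.552), while CTGF was the farthest (0.952). The measure over 12 libraries is a description, and the libraries share their lines and the DMSO pair.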

How the data were processed

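The authors deposited FPKM in 1 gene table per library, laid out as Cufflinks writes it per the file headers. The submitters' processing notes name STAR, Cufflinks and the hg19 build, with versions and settings not stated. Polyadenylated RNA was made into TruSeq libraries and run on a HiSeq, per the labels. Each table had 57869 lines for 57755 identifiers, and FPKM of the 108 identifiers at several loci were summed. Fragment totals are not known. The 95% bounds of the tables put the upper bound of a gene described here 3.05% to 14.5% above its value, leaving out CTGF and ANKRD1, and cover counting error only. For CTGF the upper bound lay up to 78.6% above the value, and for ANKRD1 up to 89.4%. A table of the whole series was not used.

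Values were analysed as log2(FPKM + 1) with limma 3.58.1 in R 4.3.3 (trend=TRUE, two-sided, condition terms and a cell-line block, 5 residual degrees of freedom plus 2.86 from the prior). The slope model used log2 hours with a slope per line (4 and 2.74). Replicate 1 is KYSE510 and replicate 2 is TE7 in every condition, so libraries were paired by line. The code was tested on simulated data. The genes, the lists and the tests were chosen with earlier results of these data known. All 10 genes are named. Of each list at most 4 genes per comparison qualified by the size of their change among those past the threshold, and the levels given for TEAD2, AXL, FRMD6, FOXF2, USP40 and PLK3 and the naming of AMOT, KRT6A, KRT17, SOX2 and LIMD1 were chosen after their values were seen. The 2 likeness targets were YAP1 and CYR61. Promoters came from RefSeq on GRCh38.p14, and their coordinates are not mixed with those of hg19. Alternatives were pseudocounts of 0.1 and 5, no filter, median-of-ratios scaling, the highest locus, no mean trend, no block and linear hours. Others were leaving out each library and leaving out 3 libraries. The share of all genes called is not given under any alternative, so a count under an alternative cannot be set against all genes.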

Additional observations from a re-analysis of the deposited data

Results flagged for a closer look

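CTGF moved in opposite directions in the lines at 50 nM. The mean change over the 4 libraries at 50 nM against DMSO was -0.95 in KYSE510 and 0.38 in TE7 on the log2(FPKM + 1) scale, with all 4 libraries below DMSO in KYSE510 and all 4 above it in TE7. The difference between the lines was not tested, since each condition has 1 library per line. The KYSE510 value draws on the library labelled KYSE510 DMSO, which stands apart from the other libraries of its line, and CTGF stayed under 1 FPKM in TE7.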

How the results depend on the processing

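Of the fitted values of single genes under the alternatives, 644 kept their direction and their side of the threshold, 90 kept the direction but no longer passed, 21 came to pass and 4 changed sign. The 644 include 41 under the highest locus, a setting that leaves the FPKM of genes at 1 locus as they are. The trend of TEAD1 was 0.0124 after median-of-ratios scaling. Leaving out 1 library at a time gave -0.495 to 0.135 for the trend of TEAD1 and -1.24 to 0.0263 for YAP1 at 2 h. The number of the 10 genes past the threshold then ran from 0 to 1 at 2 h and at 4 h, 0 to 2 at 6 h, 1 to 5 at 12 h, 3 to 7 at 200 nM against DMSO, 1 to 6 at 200 nM against 50 nM, 3 to 5 between the lines with CTGF counted, 5 to 9 in the trend and 0 to 0 for the slope difference. Where a library was left out, the lone library of that condition was assumed to vary like the others. The share of all genes called in those fits is not given, so these ranges cannot be set against all genes.

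Without the filter on low values 2 passed at 12 h and 2 at 200 nM against DMSO. Between the lines TEAD4 alone passed, leaving out CTGF, which reached 1 FPKM in KYSE510 alone. With median-of-ratios scaling 1 passed at 12 h, 0 at 200 nM against DMSO and 4 in the trend. In the unpaired fit, with no replicate block, 1 passed at 12 h, 2 at 200 nM against DMSO and 0 at 200 nM against 50 nM. Between the lines none passed in that fit once CTGF was left out. Without the 3 libraries that stand apart 1 passed at 2 h (AMOTL2) and 1 at 6 h (TEAD3), between the lines YAP1 came to pass, and both 200 nM comparisons could not be formed. The cause of these moves was not tested. The share of all genes called under these alternatives is not given. Whether a changed count is particular to these genes or goes with the calls over all genes was therefore not tested. Neither pseudocount nor the mean trend of variances moved a count past 1.5 times. The highest locus is no check here, since each of the 10 genes sits at 1 locus and keeps its FPKM. With 2 libraries per condition the p-values rest on few degrees of freedom.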
